A study of Mus musculus with 10 samples.

Results

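The apolipoproteins Apoa1, Apoa4, Apob, Apoc2 and Apoe and the phospholipid transfer protein Pltp were followed through livers of mice with a transgene for an active SREBP transcription factor, mice lacking the SREBP escort protein SCAP, and wild type mice. The 6 genes were taken by name, through every probe set that the platform annotation gives to 1 of them alone. This found 7 probe sets among 12488, and the 6 genes are among 8251 with a probe set of their own. Apoe had 2 probe sets and was represented by the brighter one, and the other 5 genes had 1 each. The measurements are log2 signals from Affymetrix MG_U74Av2 arrays hybridised with liver RNA, all from male animals. By its title, the study sought genes that SREBPs act on directly.

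TgSREBP-1a and TgSREBP-2 mice carried the active nuclear form of human SREBP-1a or human SREBP-2. Together with wild type littermates, which carried neither transgene, they were 12 to 16 weeks old and received a diet high in protein and low in carbohydrate for 2 weeks. All 3 groups of this set, the controls included, were on that diet, called high-protein here. Scap-/-;MX1-Cre mice lacked SCAP in liver after Cre, driven by the interferon-inducible MX1 promoter, had been switched on by 4 injections of polyinosinic-polycytidylic acid. Their wild type controls received the same injections, and both groups were 10 to 12 weeks old, ate Teklad chow and were killed 14 days after the last injection. RNA of 5 mice was pooled per group and each pool was hybridised to 2 arrays, so there were 10 arrays of 5 pools. Scap itself was not analysed here, so its level does not check the knockout label. A p-value here measures the spread between hybridisations and compares pools. It holds no error between mice.

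Apolipoproteins wrap triglyceride and cholesterol into particles that can travel in blood. Apob is the structural protein of very low density lipoprotein, Apoe is a ligand through which the liver takes particles back, and Apoc2 activates lipoprotein lipase. Apoa1 is the main protein of high density lipoprotein, Apoa4 rides on chylomicrons and high density lipoprotein and is made in intestine and, in mice, in liver, and Pltp moves phospholipids between particles. SREBPs are membrane proteins that SCAP escorts to the Golgi for cleavage, after which the released nuclear form switches on genes of cholesterol and fatty acid synthesis.

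The promoters of Apoa4, Pltp and Apoc2 are shown because these genes rose together in the TgSREBP-1a pool, as described below. Each line gives the 250 bases before the gene's start in RefSeq, build GRCm38.p6, 5′ to 3′ on the gene's own strand. Capitals mark matches, on either strand, to 5 sets of letters: TCACNCCAC for a sterol regulatory element, CACGTG for an E-box, CCAAT for a CCAAT box, GGGCGG for a GC box and AGGTCA for a nuclear receptor half-site.
Apoa4, chr9:46240594-46240843, plus strand: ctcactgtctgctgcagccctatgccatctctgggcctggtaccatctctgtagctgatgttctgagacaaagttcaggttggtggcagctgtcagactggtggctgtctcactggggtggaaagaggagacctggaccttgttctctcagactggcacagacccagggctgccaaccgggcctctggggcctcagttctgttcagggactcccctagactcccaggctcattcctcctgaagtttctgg
Pltp, chr2:164857709-164857958, minus strand: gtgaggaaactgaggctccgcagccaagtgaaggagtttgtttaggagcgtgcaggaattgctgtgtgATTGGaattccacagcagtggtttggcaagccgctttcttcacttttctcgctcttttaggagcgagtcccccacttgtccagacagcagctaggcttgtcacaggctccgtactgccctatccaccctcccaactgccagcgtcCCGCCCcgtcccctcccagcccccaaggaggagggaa
Apoc2, chr7:19677942-19678191, minus strand: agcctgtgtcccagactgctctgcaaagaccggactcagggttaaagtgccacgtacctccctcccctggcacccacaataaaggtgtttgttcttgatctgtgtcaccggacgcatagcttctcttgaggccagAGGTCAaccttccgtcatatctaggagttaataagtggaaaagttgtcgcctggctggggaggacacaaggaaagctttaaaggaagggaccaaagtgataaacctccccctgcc

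The promoter of Apoc2 held 1 nuclear receptor half-site, whose first base lay 115 bases before the start. The promoter of Pltp held 1 CCAAT box on the opposite strand and 1 GC box on the opposite strand, from 182 and 37 bases before the start. Apoa4 had no match, nor had the single windows of Apoa1 and Apob or any of the 3 windows of Apoe. The window of Apob and the 3 windows of Apoe belong to transcript starts that lie inside the RefSeq span of their gene. Thus no window of the 6 genes held the letters of the sterol regulatory element or the E-box. The matches do not overlap each other. Of 32851 RefSeq windows of this length, 1.05% held the sterol regulatory element letters, 6.02% the E-box, 33.8% the CCAAT box, 32.7% the GC box and 14.0% the half-site. A match is a run of letters and not a shown binding site, and these windows say nothing of sequence farther away.

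Over all arrays the lowest log2 signal was 2.68 and the highest 14.03. The array medians lay between 6.37 and 6.40, and no gene was at 0. Duplicates correlated at 0.9921 to 0.9978 over genes and were farther apart in the transgenic set, where 55 to 151 genes differed by at least 1.5-fold between duplicates, against 0 and 6 genes in the Scap set. The hepatocyte list had 7 of 9 genes measured, with a summed log2 level, to which the brightest genes contribute most, of 15.03 to 15.20 over all arrays. In TgSREBP-1a Ttr, a plasma carrier protein, fell by 1.37 against high-protein wild type and stood at -1.26 against TgSREBP-2. Without the fold threshold 4 of the 7 passed against wild type, Ttr, Fgb (-0.56) and Ahsg (-0.47) as lower and Alb (0.27) as higher. Of all genes 16.6% passed in this way. Without replicate 1 of TgSREBP-1a, Fgb (-0.65) and Ahsg (-0.62) passed in full. Limma called 0 of 7 in TgSREBP-2 and Scap-/-, with 1 and 2 at an unadjusted p under 0.05. The exocrine pancreas list had 8 of 11 genes measured, and its summed log2 level separated the pools. It was 10.59 to 10.61 in TgSREBP-1a, 14.54 to 14.57 in TgSREBP-2 and 14.10 to 14.12 in high-protein wild type, and 10.98 to 11.06 in Scap-/- against 13.06 to 13.10 in chow-fed wild type. All 8 genes (Prss2, Ctrb1, Cela1, Cela2a, Cel, Clps, Pnliprp1 and Reg1) fell in TgSREBP-1a against both other pools of its set and in Scap-/-. Reg1 and Prss2 rose in TgSREBP-2, joined by Pnliprp1, Cel and Clps without replicate 2 of TgSREBP-2, by Pnliprp1 and Cel without replicate 1 of wild type and by Clps without replicate 2 of wild type. Each pool is a group of its own, so no comparison could be made without the pools that carry this pancreatic signal. On the adipocyte list, with 5 of 7 measured, Car3 fell by 2.57 in TgSREBP-1a and was the only gene called there. Retn (-0.28), Lep (-0.23), Adipoq (-0.19) and Fabp4 (0.24) did not pass. On the lymphocyte list, with 6 of 8 measured, Ighm stood at 1.42 in TgSREBP-1a and -0.69 in Scap-/-, both calls. No other gene of that list passed in either. In TgSREBP-1a Cd4 (-0.32), Cd3g (-0.26), Cd3e (-0.09) and Cd8a (-0.05) stood lower and Ms4a1 (0.04) higher. In Scap-/- they lay between -0.14 (Cd8a) and 0.04 (Cd3g). The part of these markers in the results below was not tested. Fewer cells of a type and less RNA per cell cannot be told apart in these bulk samples.

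All 10 arrays entered 1 limma fit over 8251 genes. A gene was said to rise or fall, or to pass, at an adjusted p under 0.05 (Benjamini-Hochberg) with at least a 1.5-fold difference, and n = 2 arrays per group throughout. The figure after ± is the moderated SE, from 1 variance per gene shared by all groups. In TgSREBP-1a livers Pltp, Apoa4 and Apoc2 rose and Apob fell. In TgSREBP-2 livers Pltp and Apoa4 rose. In Scap-/- livers Apoa4 rose, so it was higher than in wild type in all 3 engineered pools. The counts were 4 of 6 in TgSREBP-1a, where 7.37% of all genes passed (4.78% higher and 2.59% lower), 2 of 6 in TgSREBP-2, where 2.57% passed, and 1 of 6 in Scap-/-, where 1.66% passed. The median log2 difference of the 6 genes was 0.50 for TgSREBP-1a against -0.03 over all genes, 0.38 for TgSREBP-2 against -0.02, and 0.06 for Scap-/- against 0.0047. Without the fold threshold TgSREBP-1a had 5 of 6, where 16.6% of all genes passed, TgSREBP-2 had 3 of 6, where 5.05% passed, and Scap-/- had 2 of 6, where 2.84% passed. Both transgenic comparisons use the same wild type arrays.

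**Figure D1:**
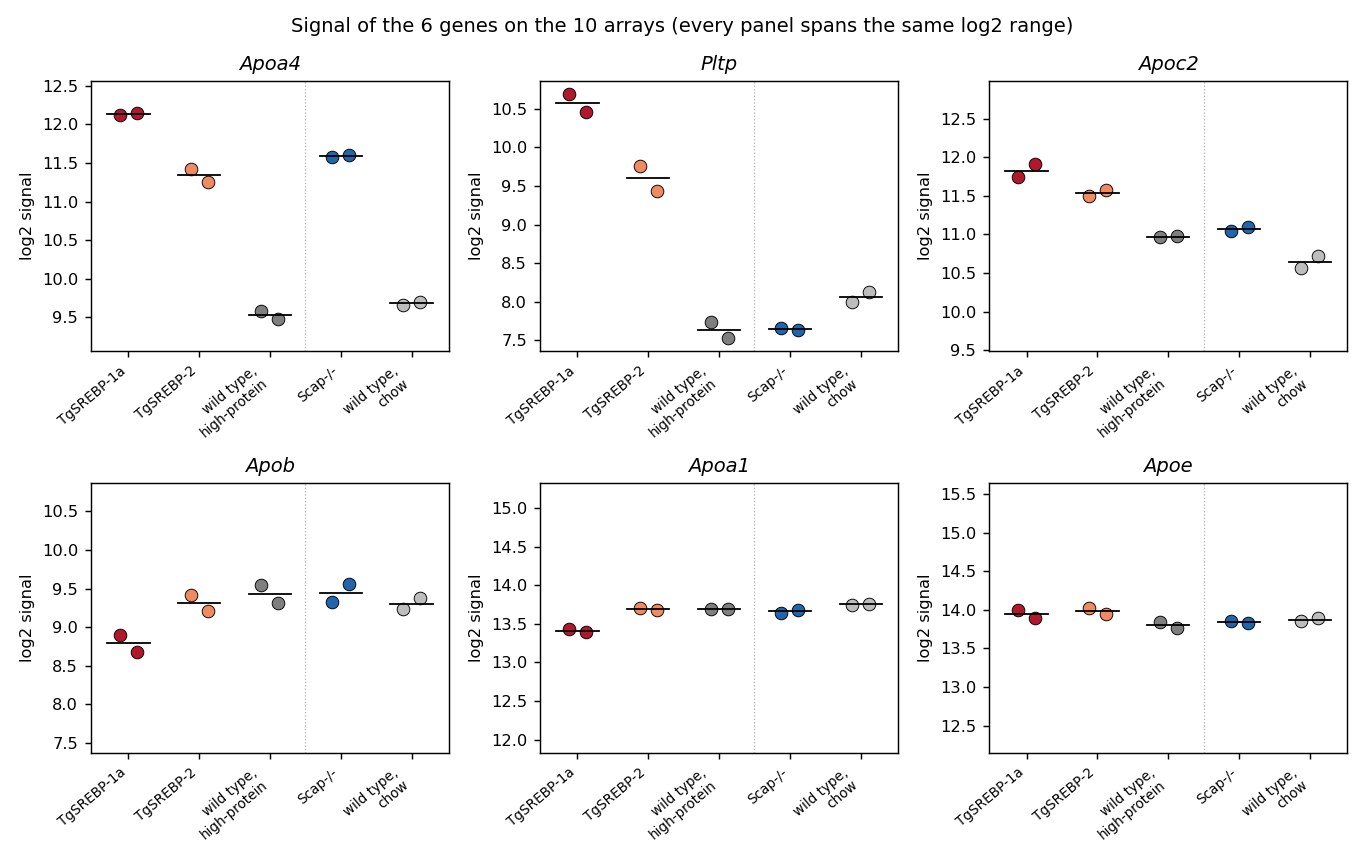
Log2 signal (vertical axes, all spanning the same range) of each gene on each array, by group. Points are the 2 arrays of a pool and bars their mean. Apoa4 stands at 11.25 or more in TgSREBP-1a, TgSREBP-2 and Scap-/- and at 9.70 or less in both wild type pools, while Pltp stands at 9.43 or more in the transgenic pools and at 8.13 or less in the others.

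**Figure D2:**
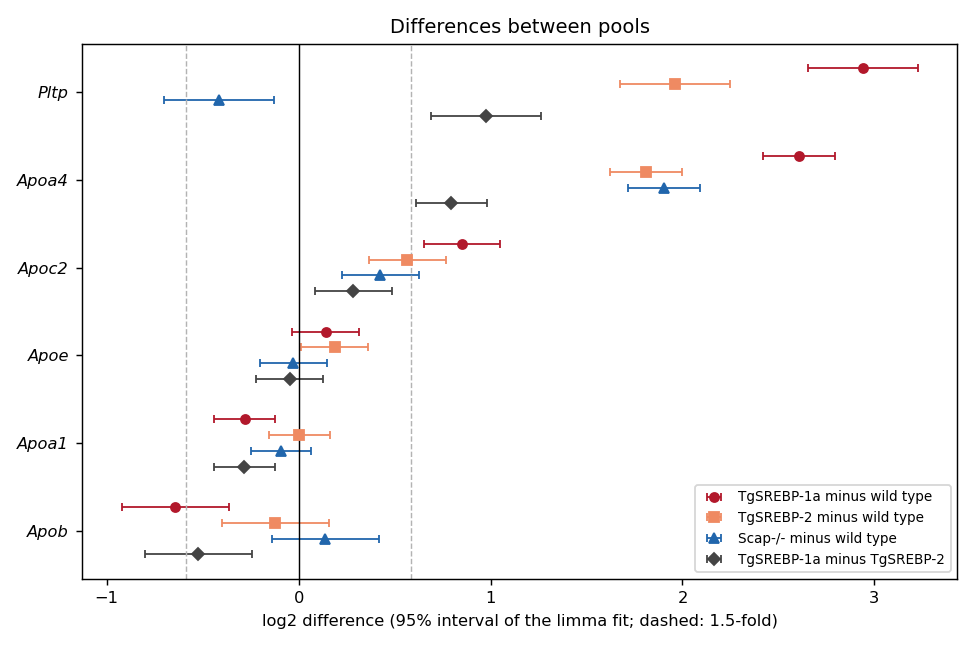
Log2 differences between pools (horizontal axis) with 95% intervals of the limma fit, for 4 comparisons per gene. The Scap-/- triangle lies at 1.91 for Apoa4 and at -0.41 for Pltp.

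Apob, the structural protein of very low density lipoprotein, had log2 signals of 8.89 and 8.68 in TgSREBP-1a and 9.42 and 9.21 in TgSREBP-2, against 9.55 and 9.31 in high-protein wild type. Both TgSREBP-1a arrays lay below all others, and TgSREBP-2 overlapped wild type. Counting either direction, TgSREBP-1a did not overlap high-protein wild type in 51.6% of all genes. The fall in TgSREBP-1a was -0.64 ± 0.13, or 1.56-fold (limma, adjusted p = 0.00532). Leaving out wild type replicate 1 gave -0.52 and leaving out TgSREBP-1a replicate 2 gave -0.54, both short of 1.5-fold. The difference in TgSREBP-2 was -0.12 ± 0.13 (adjusted p = 0.674), with a 95% interval of -0.40 to 0.16. Scap-/- gave 9.33 and 9.56 against 9.23 and 9.38 in chow-fed wild type, which overlap, and the difference of 0.14 ± 0.13 did not pass (adjusted p = 0.936). Its interval ran from -0.14 to 0.42.

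Apoe, the receptor ligand, had the highest mean signal of all 8251 genes and the highest single value in the table, 14.03 on a TgSREBP-2 array. Its log2 signals were 14.00 and 13.89 in TgSREBP-1a and 14.03 and 13.95 in TgSREBP-2, against 13.84 and 13.76 in high-protein wild type. Both transgenic pools lay above wild type without overlap, a separation that 51.6% of all genes had in TgSREBP-1a and 43.8% in TgSREBP-2, counting either direction. The difference of 0.14 ± 0.08 in TgSREBP-1a did not pass (adjusted p = 0.265, 95% interval -0.03 to 0.32). Nor did that of 0.19 ± 0.08 in TgSREBP-2 (adjusted p = 0.246, interval 0.01 to 0.36). In the Scap set the values were 13.86 and 13.83 in Scap-/- against 13.86 and 13.89 in wild type, a difference of -0.03 ± 0.08 (adjusted p = 0.993). A signal at the top of the array's range may understate a change, and saturation was not analysed here. The other probe set of Apoe, near the bottom of the range at 3.81 to 4.48, gives no second measurement of use. In the order of its means every pair of neighbouring groups overlapped.

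Apoc2, the activator of lipoprotein lipase, stepped through the groups. Its log2 signals were 11.74 and 11.91 in TgSREBP-1a and 11.50 and 11.58 in TgSREBP-2, against 10.96 and 10.98 in high-protein wild type, and 11.04 and 11.10 in Scap-/- against 10.56 and 10.73 in chow-fed wild type. No pair of neighbouring groups in this order of means overlapped, though Scap-/- and high-protein wild type were 0.10 apart. Apoc2 rose by 0.85 ± 0.09 in TgSREBP-1a, or 1.80-fold (adjusted p = 8.75e-05). In TgSREBP-2 it stood 1.48-fold higher (0.57 ± 0.09, adjusted p = 0.00467), just short of the fold threshold, which it reached without replicate 1 of TgSREBP-2 (0.60). In Scap-/- it was also higher than in wild type, by 0.42 ± 0.09 or 1.34-fold (adjusted p = 0.0325), again short of 1.5-fold.

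Apoa1, the main protein of high density lipoprotein, ranked 3 of 8251 genes by mean signal. Its log2 signals were 13.43 and 13.39 in TgSREBP-1a and 13.71 and 13.68 in TgSREBP-2, against 13.69 on both arrays of high-protein wild type. The TgSREBP-1a arrays were the lowest of all 10, and TgSREBP-2 overlapped wild type. Counting either direction, 51.6% of all genes did not overlap between TgSREBP-1a and high-protein wild type. The difference of -0.28 ± 0.07, or 1.21-fold, had an adjusted p = 0.0221 but missed the fold threshold. When the deposited values were quantile normalized it was -0.05 (adjusted p = 0.713, against 0.00265 to 0.713 over all alternatives). TgSREBP-2 differed from wild type by 0.0032 ± 0.07 (adjusted p = 0.989), with an interval of -0.16 to 0.16. Scap-/- gave 13.64 and 13.68 against 13.75 and 13.76 in wild type, a difference of -0.09 ± 0.07 (adjusted p = 0.879). As with Apoe, the brightness of this probe set limits what a difference can show.

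Apoa4, found on chylomicrons and high density lipoprotein, is the only one of the 6 genes called in all 3 comparisons with wild type. Its log2 signals were 12.13 and 12.14 in TgSREBP-1a and 11.43 and 11.25 in TgSREBP-2, against 9.58 and 9.48 in high-protein wild type. Scap-/- gave 11.57 and 11.60, against 9.66 and 9.70 in chow-fed wild type. The 3 engineered pools thus all lay above both wild type pools, and Scap-/- lay between the transgenic pools. Separation from the wild type of the same set, in either direction, held for 51.6% of all genes in TgSREBP-1a. It held for 43.8% in TgSREBP-2 and 43.7% in Scap-/-. Apoa4 rose by 2.61 ± 0.08 in TgSREBP-1a, or 6.08-fold (adjusted p = 1.43e-08), the 15th largest increase of 8251 genes. It rose by 1.81 ± 0.08 in TgSREBP-2, or 3.50-fold (adjusted p = 6.91e-07), and by 1.91 ± 0.08 in Scap-/-, or 3.75-fold (adjusted p = 5.62e-07). In Scap-/- this was the 5th largest increase of all genes. All 3 calls were kept in each of 17 alternatives. The values were 2.43 to 2.65 for TgSREBP-1a, 1.60 to 1.90 for TgSREBP-2 and 1.87 to 2.01 for Scap-/-. Alternatives on the choice of probe set cannot change the signals of Apoa4, which has 1 probe set.

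Of 13 listed markers of small intestine, the other main source of Apoa4, 10 were measured. Their summed log2 level was 9.65 to 9.66 in TgSREBP-1a and 9.79 to 9.81 in TgSREBP-2 against 9.84 to 9.87 in high-protein wild type. In the Scap set it was 9.79 to 9.81 in Scap-/- against 9.74 to 9.78 in wild type. In the limma fit 1 of the 10 passed in TgSREBP-1a, Lgals4, which fell by 0.75, and 0 passed in TgSREBP-2 and Scap-/-, where 3 and 1 had an unadjusted p under 0.05. Among these Fabp2 stood at 0.37 in TgSREBP-2 (adjusted p = 0.0705) and Lgals4 at 0.28 in Scap-/- (adjusted p = 0.143). The part of intestinal RNA in the Apoa4 result was not tested.

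Pltp, which remodels high density lipoprotein by transferring phospholipids, rose most of the 6 genes in both transgenic pools. Its log2 signals were 10.70 and 10.45 in TgSREBP-1a and 9.76 and 9.43 in TgSREBP-2, against 7.75 and 7.53 in high-protein wild type. The 3 pools stood in separate ranges. In either direction 51.6% of all genes did not overlap wild type in TgSREBP-1a and 43.8% in TgSREBP-2. The rise was 2.94 ± 0.13 in TgSREBP-1a, or 7.67-fold (adjusted p = 1.06e-07), and 1.96 ± 0.13 in TgSREBP-2, or 3.90-fold (adjusted p = 7.84e-06). These were the 12th and 20th largest increases of all genes. In the Scap set Pltp was at 7.66 and 7.64 in Scap-/- against 7.99 and 8.13 in wild type, so the groups did not overlap, which held in either direction for 43.7% of all genes. The difference of -0.41 ± 0.13, or 1.33-fold, did not pass (unadjusted p = 0.00908, adjusted p = 0.189), and its 95% interval was -0.70 to -0.13. The Pltp arrays of Scap-/- overlapped those of high-protein wild type.

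Pltp and Apoe are also made by macrophages, and some macrophage markers rose in the transgenic pools. Of 13 listed genes 11 were measured. Their summed log2 level was 12.26 to 12.35 in TgSREBP-1a and 11.97 to 12.08 in TgSREBP-2 against 11.64 to 11.67 in high-protein wild type, and 12.09 to 12.11 in Scap-/- against 12.10 to 12.17 in chow-fed wild type. In TgSREBP-1a 5 rose, namely Cd5l, C1qb, C1qc, Lyz2 and C1qa, by 0.68 to 1.53, and the other 6 stood between 0.18 and 0.56. Of all genes 4.78% rose in TgSREBP-1a, and 2.57% passed in either direction in TgSREBP-2. In TgSREBP-2 Cd5l, C1qb and Lyz2 rose, but Cd5l alone without replicate 1 of TgSREBP-2, where C1qb stood at 0.57 and Lyz2 at 0.54, and Lyz2 also missed without replicate 2 of wild type (0.58). The other 8 stood between -0.32 (Marco) and 0.42 (C1qc) in TgSREBP-2, with Adgre1 at -0.09, Csf1r at 0.07 and Cd14 at 0.05. In Scap-/- 0 of 11 passed in limma, and 3 had an unadjusted p under 0.05. Lyz2 missed 1.5-fold in TgSREBP-1a without replicate 1 of that pool (0.54). Between the transgenic pools all 11 stood higher in TgSREBP-1a, by 0.08 to 0.77. Without the fold threshold 5 of 11 passed there, where 11% of all genes did. Marco (0.77) was the 1 called, and it missed without either TgSREBP-1a array or replicate 1 of TgSREBP-2 (0.48 to 0.81). The part of the macrophage markers in the Pltp result was not tested.

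Setting one transgenic pool against the other asked whether the genes differed with the isoform. Pltp was higher in TgSREBP-1a than in TgSREBP-2 by 0.98 ± 0.13, or 1.97-fold (adjusted p = 0.000567), and Apoa4 by 0.80 ± 0.08, or 1.74-fold (adjusted p = 0.000114). These were 2 of 6 called, where 5.19% of all genes passed, and 4 of 6 without the fold threshold, where 11% did. Apob stood 1.44-fold lower in TgSREBP-1a (-0.52 ± 0.13, adjusted p = 0.022) and reached 1.5-fold without replicate 1 of TgSREBP-1a or replicate 2 of TgSREBP-2 (both -0.63). Apoa1 was lower by 1.22-fold (-0.28 ± 0.07, adjusted p = 0.0273). Apoc2 was 0.28 ± 0.09 higher (adjusted p = 0.0765) with an interval of 0.08 to 0.48, and Apoe differed by -0.05 ± 0.08 (adjusted p = 0.826) with an interval of -0.22 to 0.13. How much transgene protein each line made was not analysed here.

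Several apolipoprotein genes are chromosomal neighbours, and no measured neighbour of Apoa4 or Apoc2 was called in the 3 comparisons with wild type. On chromosome 9 RefSeq orders Apoa1, Apoc3, Apoa4 and Apoa5. While Apoa4 rose by 2.61 in TgSREBP-1a, its neighbour Apoa5, a regulator of plasma triglyceride, stood at -0.47 ± 0.10 (adjusted p = 0.00731, 1.5-fold not reached) and Apoa1 at -0.28. In Scap-/-, where Apoa4 rose by 1.91, Apoa5 was at -0.02 ± 0.10 and Apoa1 at -0.09. In TgSREBP-2, where Apoa4 rose by 1.81, Apoa5 stood at 0.34 ± 0.10 (limma, adjusted p = 0.0748) and Apoa1 at 0.0032. Apoc3 was not analysed here. On chromosome 7 the order is Apoc2, Apoc4, Apoc1 and Apoe. Apoc2 rose by 0.85 in TgSREBP-1a, Apoc4 stood at -0.32 ± 0.08 (adjusted p = 0.0199), Apoc1 at -0.27 ± 0.07 (adjusted p = 0.0284) and Apoe at 0.14, all 3 within 1.5-fold. In TgSREBP-2 Apoc2 stood at 0.57, Apoc4 at 0.10, Apoc1 at -0.06 and Apoe at 0.19. In Scap-/- Apoc2 stood at 0.42 and Apoc1 at -0.30 ± 0.07 (adjusted p = 0.0635). The 5 measured genes flanking the clusters, Pafah1b2, Zpr1, Clptm1, Tomm40 and Nectin2, ranged from -0.16 to 0.22 in the 3 comparisons with wild type and none passed.

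**Figure D3:**
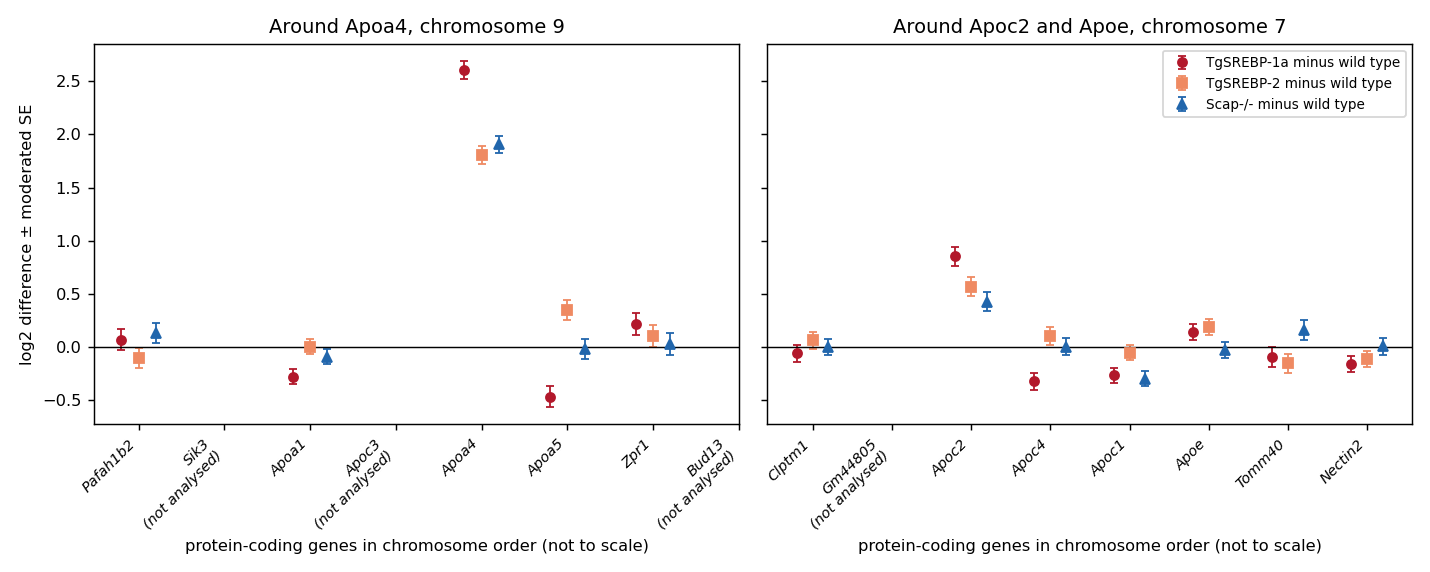
Log2 differences from wild type (vertical axis, ± moderated SE) for genes in chromosome order around Apoa4 (left) and around Apoc2 and Apoe (right), with the distance between genes not to scale. Apoa4 lies at 1.81 to 2.61, between neighbours that lie within 0.47 of 0.

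Of 11 other apolipoprotein genes 9 were measured, and in TgSREBP-1a all 9 values were negative, from -0.83 to -0.18, with a median of -0.32 against -0.03 over all genes. In that comparison Apom, a carrier of sphingosine-1-phosphate on high density lipoprotein, fell by 0.83 ± 0.09 (adjusted p = 7.22e-05) and was the 1 of 9 called. Of all genes 7.37% passed there. Without the fold threshold 6 of 9 passed, where 16.6% of all genes did. In TgSREBP-2 0 of 9 passed in limma, with 2 at an unadjusted p under 0.05, though Apof reached 0.69 without replicate 2 of that pool (adjusted p = 0.0419). In Scap-/- 0 of 9 passed in limma, with 4 at an unadjusted p under 0.05, as had 807 of all 8251 genes. Compared directly, where 5.19% of all genes passed in either direction, 3 were lower in TgSREBP-1a than in TgSREBP-2. They were Apom (-1.002 ± 0.09), Apoa5 (-0.81 ± 0.10) and Apof (-0.75 ± 0.16), and Apof missed without replicate 2 of TgSREBP-1a (-0.65, adjusted p = 0.0758) or replicate 1 of TgSREBP-2 (-0.51). Clu, at -0.49, passed without replicate 2 of TgSREBP-2 (-0.62).

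Of 13 genes of lipoprotein assembly and secretion 7 were measured. Apobec1, the deaminase that edits Apob mRNA and so sets which form of the protein is made, rose by 0.69 ± 0.13 in TgSREBP-1a (adjusted p = 0.00404) and by 0.72 ± 0.13 in Scap-/- (adjusted p = 0.0121). It fell short of 1.5-fold in TgSREBP-1a without replicate 1 of wild type (0.49), and in Scap-/- it missed in limma without any 1 of the 4 arrays compared (0.66 to 0.78, adjusted p = 0.0658 to 0.144). In TgSREBP-2 it stood at 0.27 ± 0.13 (adjusted p = 0.328), and limma called 0 of 7, with 0 at an unadjusted p under 0.05. Mttp, which loads lipid onto Apob, stood at 0.31 ± 0.24 in TgSREBP-1a and at 0.25 ± 0.24 in TgSREBP-2, and was at 0.06 ± 0.24 in Scap-/-. It reached 0.70 in TgSREBP-1a without replicate 2 of that pool (adjusted p = 0.0447), which makes the count there 2 of 7.

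Among lipases and plasma remodelling genes 8 of 13 were measured, and in TgSREBP-1a 2 rose and 2 fell. Of all genes 4.78% rose and 2.59% fell there. Pla2g7, the plasma phospholipase that degrades platelet-activating factor, rose by 2.46 ± 0.09 (adjusted p = 2.73e-08), and Lpl, the lipase that Apoc2 activates, rose by 2.19 ± 0.17 (adjusted p = 7.91e-06). Pon1, an esterase of high density lipoprotein, fell by 1.28 ± 0.12 and Angptl4, an inhibitor of Lpl, by 0.64 ± 0.08, Angptl4 under 1.5-fold without replicate 1 of TgSREBP-1a (-0.57). Lcat, which esterifies cholesterol with Apoa1 as its activator, stood at -0.54 (adjusted p = 0.0729) and passed without replicate 1 of TgSREBP-1a (-0.74). In TgSREBP-2 and Scap-/- limma called 0 of 8, with 3 and 1 at an unadjusted p under 0.05. Pon3 reached 0.60 in TgSREBP-2 without replicate 1 of wild type. Between the transgenic pools Pla2g7 (2.27 ± 0.09) and Lpl (2.02 ± 0.17) were higher in TgSREBP-1a, and Pon1 (-1.30 ± 0.12) and Lcat (-0.71 ± 0.18) were lower. Lcat missed without replicate 2 of TgSREBP-1a or replicate 1 of TgSREBP-2 (-0.51 and -0.46).

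Of 18 lipoprotein receptors and partners 12 were measured. Limma called 0 of 12 in TgSREBP-1a, TgSREBP-2, Scap-/- and between the transgenic pools, with 4, 4, 1 and 4 at an unadjusted p under 0.05. Of all 8251 genes 2445, 1410, 807 and 1764 had such a p, in the same order. Between the transgenic pools the scavenger receptor Stab1 stood at 0.57 and passed without replicate 2 of TgSREBP-1a or replicate 1 of TgSREBP-2 (both 0.61). Scarb1, the receptor for high density lipoprotein, stood at -0.42 ± 0.09 in TgSREBP-1a (adjusted p = 0.00845) and -0.30 ± 0.09 in Scap-/- (adjusted p = 0.164). Of 12 efflux transporters and sterol carriers 6 were measured, and Npc2, which carries cholesterol out of lysosomes, rose by 1.74 ± 0.11 in TgSREBP-1a and by 0.93 ± 0.11 in TgSREBP-2. It was 0.81 ± 0.11 higher in TgSREBP-1a than in TgSREBP-2. Among 17 of 19 nuclear receptors and factors measured, Srebf1, which encodes SREBP-1, rose by 1.86 ± 0.07 in TgSREBP-1a and by 1.34 ± 0.07 in TgSREBP-2. Whether its probe set also reads the human transgene was not tested. It fell by 1.51 ± 0.07 in Scap-/-, where Apoa4 rose. Ppara, the fatty acid receptor, fell by 1.24 ± 0.13 in TgSREBP-1a and was 1.12 ± 0.13 lower there than in TgSREBP-2 (log2 difference -1.12). Foxa1, at -0.37 in TgSREBP-1a, passed without replicate 2 of wild type (-0.59). Nr1h4, the bile acid receptor, stood at -0.56 in TgSREBP-1a (adjusted p = 0.00472) and passed there when wild type replicate 1 (-0.59) or TgSREBP-1a replicate 1 (-0.66) was left out. It also passed between the transgenic pools without replicate 1 of TgSREBP-1a (-0.59).

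**Figure D4:**
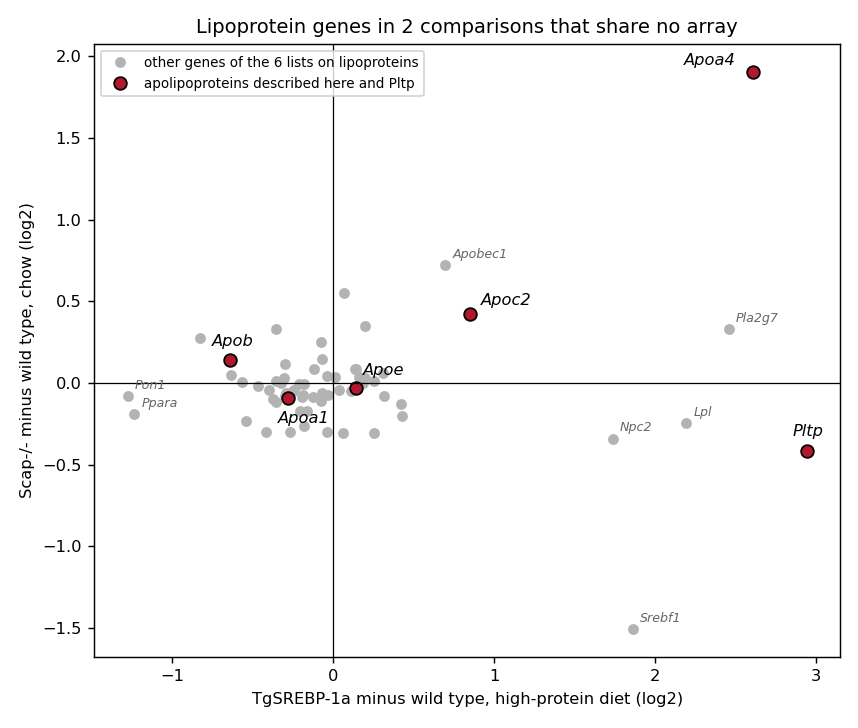
Log2 difference in Scap-/- (vertical axis) against that in TgSREBP-1a (horizontal axis) for the 6 genes and for 59 other genes of the lipoprotein lists, each from the wild type pool of its own diet. Apoa4 lies at the upper right, at 2.61 and 1.91, while Pltp and Srebf1 lie to the right at -0.41 and -1.51 on the vertical axis.

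Calls in the transgenic livers were set beside those in Scap-/- livers, with which they share no array. Of 180 genes higher in TgSREBP-2 and 76 lower in Scap-/-, 39 were in both lists, which is 21.7% and 51.3% of them. Prss2 and Reg1 of the exocrine pancreas list are among the 39. Over all 8251 genes 76 were lower and 61 higher in Scap-/-. Of the same 180 genes and 61 higher in Scap-/-, 5 were in both, or 2.78% and 8.2%. These were Apoa4, the iron-binding lipocalin Lcn2, Mgst3, Snhg6 and Ugdh. For TgSREBP-1a, 41 of 394 higher genes were lower in Scap-/- (10.4% and 53.9%) and 19 were higher (4.82% and 31.1%), Apoa4 and Apobec1 among them. Of 214 genes lower in TgSREBP-1a, 23 were lower in Scap-/- too (10.7% and 30.3%), all 8 measured pancreas genes among them, and 12 were higher. Of 32 genes lower in TgSREBP-2, 2 were lower in Scap-/- and 5 higher. Pltp is in none of these lists for Scap-/-, since it did not pass there.

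The genes with the most similar pattern over the 5 pools were found by the root mean square difference of group means, each gene centred on its own mean. For Pltp, whose means lay 1.18 from their own centre by the same measure, the closest was Pdzk1ip1 at 0.16, followed by the fatty acid elongase Elovl6 at 0.36, the ATP citrate lyase Acly at 0.37 and Ehhadh at 0.39. For Apoa4, with 1.05 of its own, the closest were Cstb at 0.54, Ugdh at 0.57, Slc20a1 at 0.59 and Aldh1a7 at 0.60, all farther from it than Pdzk1ip1 was from Pltp. For Apoc2, with 0.42 of its own, they were Sat1 at 0.08, Hspa8 and Gm2a at 0.11 and Rala at 0.12. The other 3 genes spanned less than 1 log2 unit and were not matched.

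The wild type pools differed in diet, age, injections and mouse set together, which cannot be told apart. Limma called 0 of 6 genes between high-protein and chow-fed wild type, where 5.62% of all genes passed, with 2 at an unadjusted p under 0.05. These 2 also had an adjusted p under 0.05, as did 22.7% of all genes. Pltp was lower in high-protein wild type by 1.34-fold (-0.43 ± 0.13, adjusted p = 0.0396) and Apoc2 higher by 1.25-fold (0.33 ± 0.09, adjusted p = 0.028). The summed macrophage level was lower there too (11.64 to 11.67 against 12.10 to 12.17), and its part in the Pltp difference was not tested. Apoa4 differed by -0.15 ± 0.08 (adjusted p = 0.218), with an interval of -0.34 to 0.04, so its wild type levels on both diets were within 1.5-fold of each other. Among the lists, Angptl4 (0.88), Ppara (0.97) and Nr1d1 (0.86) were higher and Srebf1 (-1.42) and Nr1h3 (-0.68) lower in high-protein wild type, Nr1h3 under 1.5-fold without replicate 2 of chow-fed wild type. Among the markers 7 pancreas genes, Fgb and Lgals4 were higher. Against the called genes of their lists, Reg1 of the pancreas list stood at -0.50 and Cd14 of the macrophage list at 0.48, both under 1.5-fold. C1qb, Lyz2, Cd5l, Marco, Ttr, Ighm and Fabp2 were lower, of which Cd5l, Marco and Fabp2 missed without replicate 2 of chow-fed wild type. Marco also missed without replicate 1 of chow-fed (-0.85) or high-protein wild type (-0.51). C1qc reached 1.5-fold without replicate 1 of chow-fed (-0.64) or high-protein wild type (-0.60). So did Apof (-0.71) and Sar1b (-0.69) without replicate 1 of high-protein wild type, and Apobec1 (-0.61) without its replicate 2. Tests of Scap-/- were made against chow-fed wild type alone.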

How the data were processed

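Liver RNA pools, 5 mice each, were hybridised in duplicate to MG_U74Av2 arrays. The authors deposited log2 signals for 12488 probe sets, made with RMA per the submitters' processing notes, which name no version. Microarray Suite 5.0 is named in the design text, but the values are not on its linear scale. Values were used as deposited, and the number of arrays limits the precision.

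Of the probe sets 66 controls, 396 with several symbols and 1193 with none were left out. The other 10833 were named through the platform annotation, 10817 of them updated by gene ID through RefSeq, and each of 8251 genes took its probe set with the highest mean. Limma 3.58.1 in R 4.3.3 fitted 1 mean per group (5 residual degrees of freedom, no block) with lmFit and eBayes, and 5 comparisons were made.

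The members and gene lists were chosen with earlier results of these data known. Named are the 6 members, up to 4 called genes per lipoprotein list and comparison, the 4 nearest patterns per member spanning at least 1 log2 unit, called markers, and neighbours. Neighbours, uncalled list genes and shared genes were picked after values were seen. Alternatives cover the block, left-out arrays, normalization, filters, offset, probe sets, variance model and thresholds.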

Additional observations from a re-analysis of the deposited data

How the results depend on the processing

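Apoa4 and Pltp in both transgenic pools, Apoa4 in Scap-/-, Apoc2 in TgSREBP-1a and the differences of Apoa4 and Pltp between the transgenic pools passed under each of 17 alternatives other than thresholds. Alternatives on the choice of probe set cannot change the signals of Apoa4, Pltp and Apoc2, which have 1 probe set each. At 2-fold the counts were 2 of 6 in TgSREBP-1a and 0 between the transgenic pools. The share of all genes at 2-fold is not given here, so these counts cannot be weighed against it. With adjusted p alone the counts were 5 in TgSREBP-1a, 3 in TgSREBP-2, 2 in Scap-/-, 4 between the transgenic pools and 2 between the wild type pools. Of all genes 16.6%, 5.05%, 2.84%, 11% and 22.7% passed, in the same order. The fewer or more calls follow from the threshold itself. Values close to 0 changed sign. Apoa1 in TgSREBP-2 was -0.0053 after median centring and -0.014 to 0.02 without single arrays. Apoe between the transgenic pools was -0.10 to 0.0063 without single arrays. Between the wild type pools Apoa4 was 0.027 after quantile normalization, and Apoe was 0.0375 with all probe sets averaged. That average brings in the dim probe set of Apoe, at 4.48 and 3.81 in high-protein and 4.06 and 3.94 in chow-fed wild type. The cause of the other changes of sign was not tested. Without single arrays the calls numbered 3 to 4 in TgSREBP-1a, 2 to 3 in TgSREBP-2, 1 in Scap-/-, 2 to 3 between the transgenic pools and 0 between the wild type pools. The adjusted p of Pltp in Scap-/- was 0.00458 to 0.836 over the alternatives, and its value was -0.48 to -0.35.

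All groups use the same replicate numbers, and what a number marks is not stated in the labels. Deviations of same-numbered arrays correlated at 0.46 to 0.61 in the transgenic set, 0.30 in the Scap set and -0.48 to -0.12 between the sets. With the number as a block the counts of members stayed at 4, 2, 1, 2 and 0 in the order TgSREBP-1a, TgSREBP-2, Scap-/-, transgenic pools and wild type pools, and over all genes they were 614, 218, 139, 432 and 471 against 608, 212, 137, 428 and 464 without it. Blocks within each set or crossed between the sets, chosen after seeing the data, gave the same member counts, with 372 and 478 genes between the wild type pools.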
